A study of Danio rerio with 9 samples.

Results

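Collagens, the enzymes that modify and crosslink them, and the proteins that bind or degrade the extracellular matrix were examined in zebrafish skeletal muscle. Members were taken by gene name from the deposited tables, as names beginning with the symbols of collagen chains, lysyl oxidases, collagen hydroxylases and chaperones, matrix metalloproteinases and their inhibitors, small leucine-rich proteoglycans, fibronectin and matricellular proteins, and the enzymes of hyaluronan. This gave 144 genes of 32520. Of these, 55 encode collagen chains, 10 lysyl oxidases, 14 hydroxylases and collagen chaperones, 26 matrix metalloproteinases, 5 inhibitors of metalloproteinases, 6 small leucine-rich proteoglycans, 17 fibronectin and matricellular proteins and 9 hyaluronan enzymes. The remaining 2, *loxhd1a* and *loxhd1b*, share the first letters of the lysyl oxidases but are not lysyl oxidases.

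Skeletal muscle was taken from adult male zebrafish aged 12 months at selection, with muscle of 2 fish in each library and 3 libraries in each of 3 groups. WT fish were of the AB strain. The *bves* KO fish carried CRISPR/Cas9 frameshift alleles of *bves*, which encodes a Popeye domain protein of muscle membranes, and the sources used here do not say which mutant line was sequenced. The *bves* KO-EX fish were *bves* KO fish that had swum for 8 weeks in sessions of 1.5 h, with 3 training days followed by 1 rest day. Exercised WT fish were not analysed here.

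Fibrillar collagens are triple helices that assemble outside the cell into the fibrils of muscle connective tissue, and collagen VI forms beaded microfibrils next to the muscle fibre. Within the cell, prolyl and lysyl hydroxylases modify the new chains and the chaperone Hsp47 holds the helix together. After secretion, lysyl oxidases oxidise lysine side chains, which then join neighbouring molecules by covalent crosslinks and stiffen the fibril. Matrix metalloproteinases cut collagens and other matrix proteins, and TIMP proteins inhibit them. These roles are known mainly from work in mammals.

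Library totals ran from 17422188 to 18860779 estimated counts. Of all counts, the members took 0.181% to 0.246% in the WT libraries, 0.306% to 0.420% in those of *bves* KO and 0.377% to 0.513% in those of *bves* KO-EX. The targeted gene *bves* had 39.5, 57.2 and 43.8 CPM (read counts relative to library size, after TMM scaling between libraries) in WT and 7.94, 17.5 and 6.70 CPM in *bves* KO. Under the label *bves* KO-EX the 3 libraries had 47.4, 11.4 and 49.6 CPM. Replicates 1 and 3 of that label thus lay in the WT range of *bves*, and the libraries of that label are not called mutant below. The calls with that label are also given from replicate 2 alone. Muscle markers *mylpfa* and *ckma* were abundant in every library, at 11765 to 33379 CPM and 36707 to 56980 CPM. The highest value of both was that of replicate 2 of WT, which also had the lowest TMM factor, 0.763. The labels do not say that the replicates are separate experiments, so the p-values measure the spread between these libraries.

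Levels of different genes are compared in TPM, which is scaled for gene length but lacks the TMM scaling between libraries. Sums of TPM are given on that scale. The members summed to 603 ± 114 TPM in WT libraries, 979 ± 162 TPM in *bves* KO and 1119 ± 173 TPM in *bves* KO-EX (SD, n = 3 each). The WT libraries had 675, 472 and 663 TPM, and the lowest of them, replicate 2, had a TMM factor of 0.763. The collagen-binding glycoprotein gene *sparc* had the highest mean over the 9 libraries, 122.8 TPM, followed by *col1a1a* at 53.3 TPM, the periostin gene *postnb* at 50.6 TPM, *col1a1b* at 48.1 TPM, the decorin gene *dcn* at 42.5 TPM and *col1a2* at 40.5 TPM. At the low end, 29 members had at most 3 counts in every library, 8 of them 0 throughout, and 75 members had a mean of at least 1 TPM. Single values of TPM can rest on few reads, since *col4a4* was listed at a mean of 7.71 TPM with at most 7.29 counts in any library. It was listed at 0 to 0.14 TPM in WT and at 5.51 to 19.9 TPM in the other groups, and these values are part of the TPM sums given for members and collagens. The test was therefore made on counts, for the 93 members that passed edgeR's low-count filter together with 14849 genes in all. The 51 members left out included 17 of the 26 matrix metalloproteinases.

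The 3 comparisons were made with edgeR's quasi-likelihood test over all 14849 genes, and a gene was called at a Benjamini-Hochberg adjusted p under 0.05 and a fold change above 2. Between *bves* KO and WT, 5 of the 93 tested members rose and 0 fell, where 0.714% of all tested genes rose and 0.343% fell. The 5 were the crosslinking enzyme gene *loxl2a* and the collagen chain genes *col6a2*, *col10a1a*, *col1a1a* and *col21a1*. At an unadjusted p under 0.05, edgeR had 34 members higher and 2 lower, against 8.60% and 8.30% of all genes. DESeq2 called 9 members up and 0 down, against 1.95% and 1.36% of all genes. In 36 members every *bves* KO library was above every WT library and in 1 every one was below, which held for 11.2% and 10.2% of all genes. The log2 fold change was above 0 in 74 of the 93, against 47.7% of all genes, with a median of 0.39 against -0.03 over all genes.

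Between *bves* KO-EX and *bves* KO, edgeR called 0 members up and 2 down, where 0.653% of all tested genes rose and 0.748% fell. The 2 members that fell were *loxl2a* and the hyaluronidase gene *hyal2a*. At an unadjusted p under 0.05 there were 6 members higher and 6 lower in edgeR, against 8.51% and 6.82% of all genes, and DESeq2 called 0 up and 3 down, against 1.51% and 1.54%. Without overlap of the groups, 8 members were higher and 9 lower, against 12.2% and 10.8% of all genes. The log2 fold change was above 0 in 54 members, against 50.7% of all genes, and the median was 0.09 for the members and 0.01 for all genes. Compared with WT, 12 members rose in *bves* KO-EX and 1 fell, where 2.46% of all genes rose and 1.66% fell. The 12 were 8 collagen chain genes, both periostin genes, *fn1a* and *loxl1*, and the member that fell was *hyal2a*. With no fold limit, 19 members were higher, against 3.06% of all genes, and DESeq2 called 16 up and 2 down, against 3.95% and 3.58%. At an unadjusted p under 0.05, edgeR had 39 higher and 4 lower, against 12.5% and 12.6% of all genes, and the groups did not overlap in 39 that were higher and 5 that were lower, against 15% and 13%. Of the 93 members, 69 had a log2 fold change above 0 against 50.4% of all genes, and the median was 0.45 against 0.01. With replicate 2 as the only library of *bves* KO-EX, 0 members passed in either comparison with that label, in a fit that assumes that this library varies like those of the other groups. The 12 members that rose against WT then had log2 fold changes of 1.102 (*postnb*) to 2.27 (*col10a1a*) and edgeR adjusted p-values of 0.0559 to 0.212, with *col1a1a* at 2.04 and *col6a2* at 1.57. The mitochondrial share of counts was 23.4% in replicate 1 of *bves* KO-EX and 11.8% to 16.5% in the other 8 libraries. The 5 red blood cell markers summed to 678 to 1033 TPM in WT, 868 to 1336 TPM in *bves* KO and 1102 to 1658 TPM in *bves* KO-EX, and edgeR called 0 of them. Their part in the calls was not tested. The comparisons share libraries with each other, so their lists of members are not independent.

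**Figure D1:**
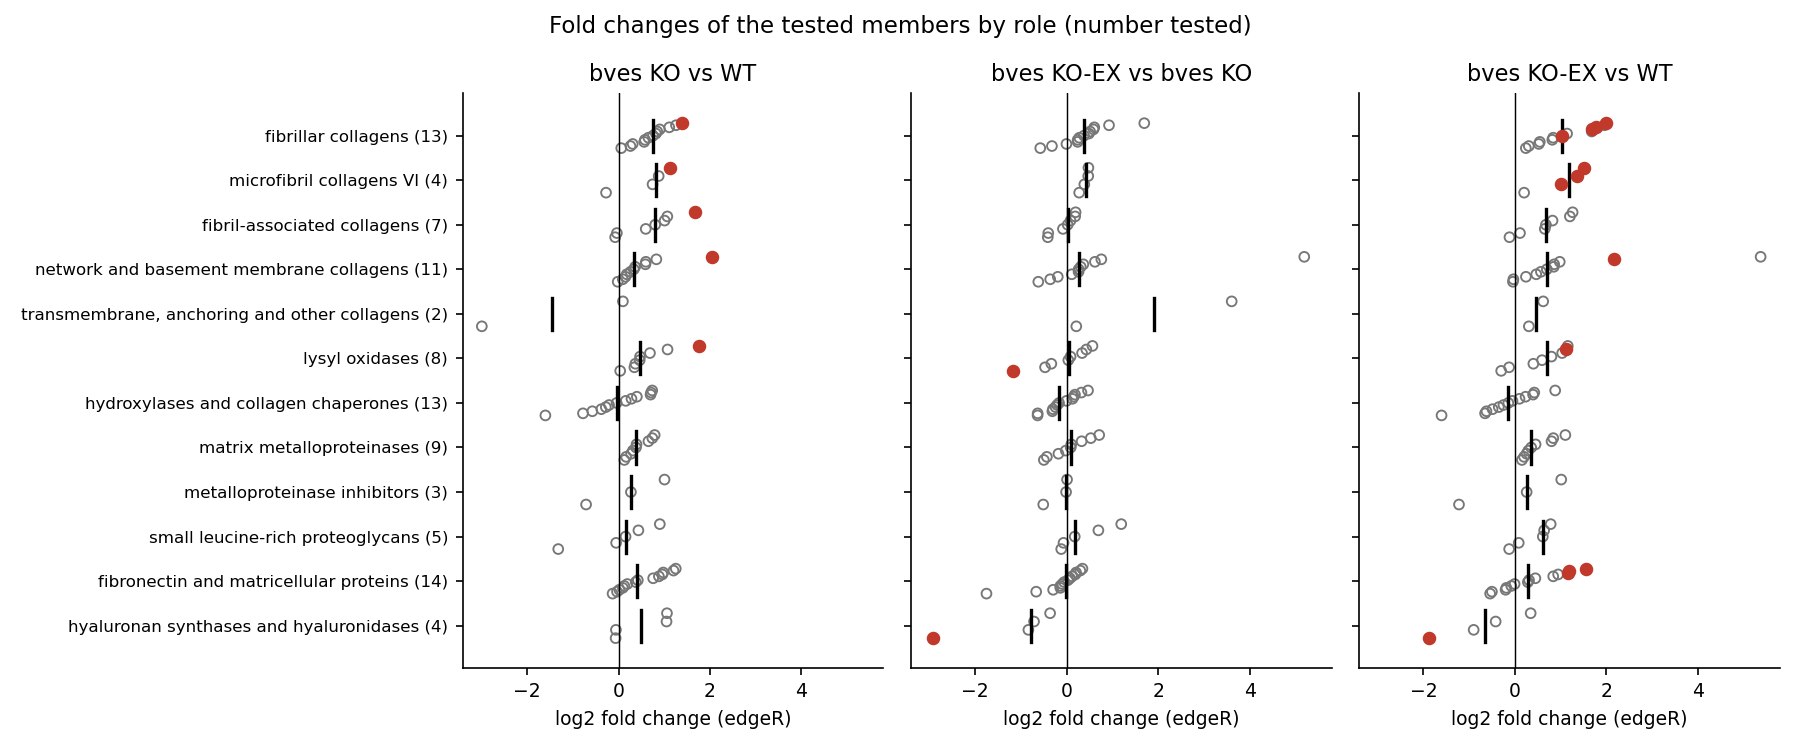
Log2 fold change of each tested member (edgeR, 9 libraries) by role, in the 3 comparisons. Each circle is 1 gene, filled where it was called, the black bar is the median of the role, and the number tested stands beside the role. Filled circles lie to the right for collagens against WT and to the left for *loxl2a* and *hyal2a* between *bves* KO-EX and *bves* KO.

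Among the crosslinking enzymes, *loxl2a* (ENSDARG00000044010), a lysyl oxidase that acts on collagens, had 12.9, 18.2 and 22.7 CPM in WT, 49.7, 70.4 and 62.5 CPM in *bves* KO, and 27.2, 27.1 and 26.9 CPM in the libraries labelled *bves* KO-EX. The 3 groups did not overlap, with *bves* KO highest and WT lowest, and the libraries of *bves* KO-EX lay within 1 CPM of each other. Whether *loxl2a* followed the *bves* level was not tested. The log2 fold change between *bves* KO and WT was 1.76 (edgeR adjusted p = 0.0062, SE 0.229), a 3.39-fold higher level. It was called with each of the 9 libraries left out in turn, where it lay between 1.57 and 1.97. From *bves* KO to *bves* KO-EX it was -1.17 (edgeR adjusted p = 0.0324, SE 0.225). That call held in 3 of the 9 fits with a library left out, those without a WT library, and was lost without any one library of *bves* KO or *bves* KO-EX, where the adjusted p reached 0.12 and the log2 fold change stayed between -1.29 and -1.05. It was also lost with total-count scaling. Replicate 2 of *bves* KO-EX alone gave -1.18 (edgeR adjusted p = 0.299). Against WT the level in *bves* KO-EX was 0.59 higher on the log2 scale and did not pass the test (edgeR adjusted p = 0.133, SE 0.225).

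The highest mean CPM was that of *bves* KO-EX in *loxl2b*, *loxl1*, *loxa*, *loxl3a* and *loxl4*. In *loxl3b*, *LOXL4* (ENSDARG00000105442) and the low-level, untested *loxl5b* it was that of *bves* KO, with groups that overlapped. Their means in WT, *bves* KO and *bves* KO-EX were 8.56, 8.77 and 6.94 CPM, 3.58, 4.61 and 3.32 CPM, and 0.248, 0.365 and 0.281 CPM. The *loxl2a* paralog *loxl2b* had 12.9, 12.7 and 14.03 CPM in WT, 14.5, 18.9 and 21.2 CPM in *bves* KO, and 23.1, 21.4 and 24.5 CPM in *bves* KO-EX. Its 3 groups did not overlap either, but the highest was *bves* KO-EX, with a log2 fold change against WT of 0.80 (edgeR adjusted p = 0.0328), below the fold limit. The gene *loxl1*, whose product is known for crosslinking elastin, was at 2.64, 3.69 and 3.19 CPM in WT, 5.79, 4.84 and 4.63 CPM in *bves* KO, and 6.06, 8.06 and 6.42 CPM in *bves* KO-EX. Its groups were ordered like those of *loxl2b*, and it rose between *bves* KO-EX and WT by 1.12 (edgeR adjusted p = 0.0224, SE 0.223). The call of *loxl1* held in 6 of 9 fits with a library left out, with an adjusted p of up to 0.0791. The founding member of the family, *loxa*, had the highest lysyl oxidase level over the 9 libraries and 9.30 ± 2.65 TPM in WT, 12.8 ± 3.53 TPM in *bves* KO and 13.4 ± 1.79 TPM in *bves* KO-EX (SD, n = 3), with edgeR adjusted p-values of 0.275 or more in the 3 comparisons. Of the 8 lysyl oxidases tested, 8 had a log2 fold change above 0 between *bves* KO and WT, against 47.7% of all genes. Their median was 0.47, against -0.03 over all genes. Between *bves* KO-EX and *bves* KO 5 of the 8 were above 0 (median 0.06), and between *bves* KO-EX and WT 6 were (median 0.70). The shares of all genes there were 50.7% and 50.4%.

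In each library, *loxl2a* made up 12.3% to 15.7% of the summed TPM of the 10 lysyl oxidases in WT, 28.0% to 33.6% in *bves* KO and 15.9% to 17.03% in *bves* KO-EX. The lysyl oxidases other than *loxl2a* summed to 21.5 ± 7.86 TPM in WT, 28.3 ± 4.97 TPM in *bves* KO and 28.9 ± 2.49 TPM in *bves* KO-EX (SD, n = 3 each). The share of *loxl2a* was thus highest in *bves* KO and did not overlap with the other groups, while the sum of the others overlapped among all 3 groups.

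**Figure D2:**
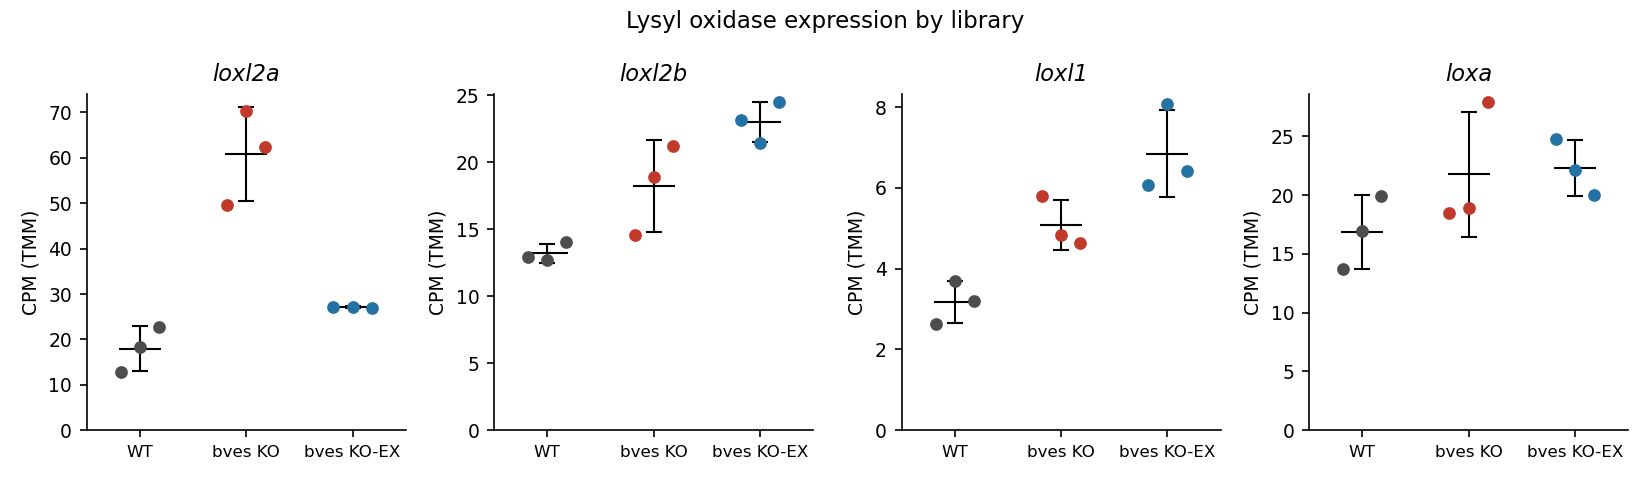
CPM after TMM scaling of *loxl2a*, *loxl2b*, *loxl1* and *loxa* in each library of the WT, *bves* KO and *bves* KO-EX groups. Points are libraries, and bars are the mean and SD of 3. In *loxl2a* the *bves* KO libraries, at 49.7 to 70.4 CPM, lie above all others, whereas in *loxl2b* and *loxl1* the *bves* KO-EX libraries are highest.

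Type I collagen, the main fibrillar collagen of muscle connective tissue, is encoded in zebrafish by *col1a1a*, *col1a1b* and *col1a2*. The level of *col1a1a* (ENSDARG00000012405) was 91.8, 134 and 109 CPM in WT, 233, 262 and 383 CPM in *bves* KO, and 347, 465 and 521 CPM in *bves* KO-EX. Every library of *bves* KO and of the label *bves* KO-EX was above every WT library, and the range of *bves* KO-EX began within that of *bves* KO. The log2 fold change was 1.39 between *bves* KO and WT (edgeR adjusted p = 0.0434, SE 0.279), 0.60 between *bves* KO-EX and *bves* KO (edgeR adjusted p = 0.326, SE 0.274) and 1.99 between *bves* KO-EX and WT (edgeR adjusted p = 0.00575, SE 0.284). The first of these calls held in 2 of 9 fits with a library left out, those without replicate 1 or replicate 2 of *bves* KO-EX, with a log2 fold change of 1.15 to 1.55 and an adjusted p of up to 0.169. The last held in 9 of 9.

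The second alpha-1 gene, *col1a1b*, had 113, 154 and 109 CPM in WT, 254, 236 and 408 CPM in *bves* KO, and 351, 463 and 466 CPM in *bves* KO-EX. The alpha-2 gene, *col1a2*, had 103, 127 and 112 CPM in WT, 198, 206 and 332 CPM in *bves* KO, and 300.3, 406 and 399 CPM in *bves* KO-EX. In both genes replicate 3 was the highest *bves* KO library, and WT overlapped with neither of the other groups. Between *bves* KO and WT their log2 fold changes were 1.26 and 1.11, and with edgeR adjusted p-values of 0.0665 and 0.0784 they were not called. Against WT, in *bves* KO-EX, *col1a1b* rose by 1.77 (edgeR adjusted p = 0.0108, SE 0.286) and *col1a2* by 1.70 (edgeR adjusted p = 0.00979, SE 0.269), both called in 9 of 9 fits with a library left out.

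The 3 type I chain genes summed to 56.1 ± 4.65 TPM in WT, 149.9 ± 44.6 TPM in *bves* KO and 219.7 ± 57.0 TPM in *bves* KO-EX (SD, n = 3), and took 26.3% to 31.1%, 37.5% to 41.1% and 40.8% to 46.2% of the TPM of all 55 collagen chain genes. The share in WT was thus below that in every other library, whereas the shares of *bves* KO and *bves* KO-EX overlapped. The TPM of all collagen chain genes includes *col4a4*, listed on at most 7.29 counts at 0 to 0.14 TPM in WT and 5.51 to 19.9 TPM in the other groups. The TPM of *col1a1a* was 0.982 to 1.42 times that of *col1a2* in WT, 1.33 to 1.59 times in *bves* KO and 1.20 to 1.37 times in *bves* KO-EX. That of *col1a1b* was 0.993 to 1.30 times the TPM of *col1a2* over all libraries. Relative to *col1a1a*, the fibril-nucleating chain *col5a1* stood at a TPM ratio of 0.198 ± 0.00786 in WT libraries, 0.116 ± 0.0177 in those of *bves* KO and 0.113 ± 0.0134 in those of *bves* KO-EX (SD, n = 3). WT did not overlap with the other groups in that ratio.

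Among the other fibrillar chains, *col5a1* rose between *bves* KO-EX and WT by 1.03 (edgeR adjusted p = 0.0394, SE 0.248), and this call held in 2 of 9 fits with a library left out, with an adjusted p of up to 0.123. Its levels were 35.7, 58.0 and 38.6 CPM in WT, 68.3, 55.8 and 83.8 CPM in *bves* KO, and 75.9, 103 and 91.1 CPM in *bves* KO-EX. The largest fibrillar difference between *bves* KO-EX and *bves* KO was that of *col5a2b*, at 0.889, 2.11 and 2.77 CPM against 0.375, 0.634 and 0.763 CPM, a log2 fold change of 1.70 (edgeR adjusted p = 0.148, SE 0.538). Of the 13 fibrillar chain genes tested, 13 had a log2 fold change above 0 between *bves* KO and WT (median 0.75), against 47.7% of all genes. Between *bves* KO-EX and WT 13 did (median 1.03), against 50.4%. In these comparisons 1 and 4 were called up, against 0.714% and 2.46% of all genes. Between *bves* KO-EX and *bves* KO 10 were above 0 (median 0.38), against 50.7% of all genes. There edgeR and DESeq2 called 0, and at an unadjusted p under 0.05 in edgeR 2 were higher and 0 lower, against 8.51% and 6.82%.

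Of the 4 collagen VI chain genes tested, 1 rose between *bves* KO and WT and 3 between *bves* KO-EX and WT, with 0 that fell. Over all genes, 0.714% and 2.46% rose in these comparisons. The chain gene *col6a2* had 22.3, 21.8 and 23.1 CPM in WT, 40.6, 45.2 and 60.3 CPM in *bves* KO, and 58.1, 67.2 and 65.4 CPM in *bves* KO-EX. The WT libraries were within 1.5 CPM of each other and below those of the other groups. The log2 fold change was 1.12 between *bves* KO and WT (edgeR adjusted p = 0.0265, SE 0.193), called in 5 of 9 fits with a library left out, and 1.505 between *bves* KO-EX and WT (edgeR adjusted p = 0.00381, SE 0.194), called in 9 of 9. With total-count scaling the first of these was not called. The partner chain *col6a1* had 44.5, 43.9 and 47.6 CPM in WT, 72.8, 79.5 and 97.8 CPM in *bves* KO, and 106, 127 and 113 CPM in *bves* KO-EX, with no overlap among the 3 groups. It rose between *bves* KO-EX and WT by 1.35 (edgeR adjusted p = 0.00622, SE 0.194), called in 9 of 9 fits with a library left out. The long chain *col6a3* (ENSDARG00000077139, 1 of 2 genes under that symbol) rose by 1.02 in the same comparison (edgeR adjusted p = 0.0273, SE 0.217), held in 3 of 9. The low-level chain *col6a4a* was at 1.15 to 1.52 CPM in WT, 0.804 to 1.33 CPM in *bves* KO and 0.667 to 3.09 CPM in *bves* KO-EX, with a log2 fold change between *bves* KO and WT of -0.27 (edgeR adjusted p = 0.837).

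**Figure D3:**
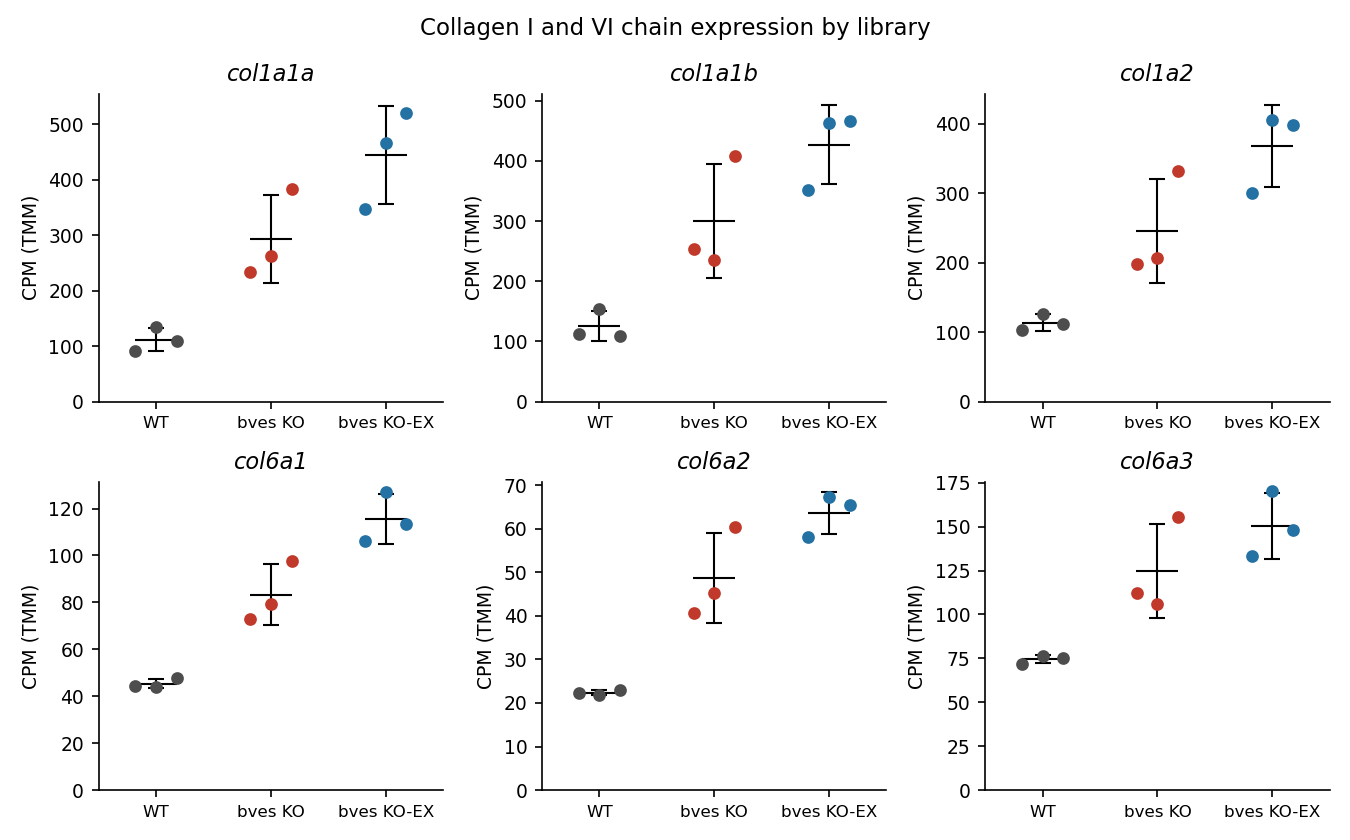
CPM after TMM scaling of the 3 type I chain genes and of *col6a1*, *col6a2* and *col6a3* (ENSDARG00000077139) in each library. Points are libraries, and bars are the mean and SD of 3. In all 6 genes the WT libraries lie below all other libraries, and *bves* KO overlaps with *bves* KO-EX except in *col6a1*.

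The remaining collagens held 2 further calls. The network-forming chain *col10a1a*, known from cartilage and bone, had 1.29, 2.64 and 2.08 CPM in WT, 4.93, 11.99 and 7.73 CPM in *bves* KO, and 10.95, 9.71 and 5.93 CPM in *bves* KO-EX. The other groups were both above WT and overlapped with each other, with log2 fold changes against WT of 2.05 (edgeR adjusted p = 0.0338, SE 0.385, called in 4 of 9 fits with a library left out) in *bves* KO and 2.16 (edgeR adjusted p = 0.0162, SE 0.385, called in 7 of 9) in *bves* KO-EX. The fibril-associated chain *col21a1* had 2.83, 4.52 and 2.73 CPM in WT, 9.49, 6.92 and 15.3 CPM in *bves* KO, and 5.73, 10.6 and 7.67 CPM in *bves* KO-EX. Its log2 fold change was 1.67 between *bves* KO and WT (edgeR adjusted p = 0.0479, SE 0.345), held in 2 of 9 fits, and 1.26 between *bves* KO-EX and WT (edgeR adjusted p = 0.0574, SE 0.344). The most abundant fibril-associated chain gene, *col12a1a*, was at 116 to 121 CPM in WT, 147 to 243 CPM in *bves* KO and 178 to 209 CPM in *bves* KO-EX, and with edgeR adjusted p-values of 0.116 or more it was not called. The next by TPM, *col14a1a*, rested on at most 40 counts in any library. It was at 0.815 to 1.16 CPM, 1.80 to 2.15 CPM and 1.17 to 1.74 CPM in these groups, and it was not called.

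In the basement membrane, the sheet around each muscle fibre, *col4a2* had 57.6, 29.1 and 73.9 CPM in WT, 59.9, 49.4 and 62.1 CPM in *bves* KO, and 104, 88.2 and 97.5 CPM in *bves* KO-EX. The *bves* KO-EX libraries were the 3 highest, with a log2 fold change of 0.76 against *bves* KO (edgeR adjusted p = 0.236) and 0.85 against WT (edgeR adjusted p = 0.107). For *col18a1b*, a heparan sulfate-bearing chain, the log2 fold change between *bves* KO-EX and WT was 0.86 (edgeR adjusted p = 0.0409), under the fold limit. Over all 37 collagen chain genes tested, 4 rose and 0 fell between *bves* KO and WT, against 0.714% and 0.343% of all genes. Between *bves* KO-EX and WT, 8 rose and 0 fell, against 2.46% and 1.66%. The counts at an unadjusted p under 0.05 were 18 higher and 0 lower, against 8.60% and 8.30% of all genes, and 23 higher and 0 lower, against 12.5% and 12.6%. DESeq2 called 6 and 11 up and 0 down, against 1.95% and 3.95% up and 1.36% and 3.58% down over all genes. For *bves* KO-EX against *bves* KO, both tools called 0 collagen genes. In that comparison 6 were higher and 0 lower at an unadjusted p under 0.05 in edgeR, against 8.51% and 6.82% of all genes.

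Fibroblasts and tenocytes make much of the collagen of muscle, and fewer cells of a type and less RNA per cell cannot be told apart in these bulk libraries. The 10 fibroblast and tenocyte markers summed to 11.3 to 21.9 TPM in WT, 22.3 to 28.3 TPM in *bves* KO and 16.8 to 26.4 TPM in *bves* KO-EX, with none at 0 in all libraries. Of the 8 tested, the tendon transcription factor gene *scxa* rose between *bves* KO and WT (log2 fold change 1.04, edgeR adjusted p = 0.0391) and fell between *bves* KO-EX and *bves* KO (-1.61, edgeR adjusted p = 0.00748), and *tnmd*, which encodes a tendon membrane protein, rose between *bves* KO-EX and WT (1.03, edgeR adjusted p = 0.0236). At an unadjusted p under 0.05, 2 of the 8 were higher and 2 lower between *bves* KO and WT, 1 higher and 2 lower between *bves* KO-EX and *bves* KO, and 1 higher and 3 lower between *bves* KO-EX and WT. Over all genes, the shares higher and lower were 8.60% and 8.30%, 8.51% and 6.82%, and 12.5% and 12.6% in these comparisons. The median over the 8 was 0.20, -0.28 and -0.35 in the same order. From replicate 2 of *bves* KO-EX alone, *scxa* had -1.74 against *bves* KO (edgeR adjusted p = 0.145) and *tnmd* 1.17 against WT (edgeR adjusted p = 0.102). Of the 7 tested macrophage and neutrophil markers, edgeR called 1 up and 0 down between *bves* KO-EX and WT, against 2.46% and 1.66% of all genes. Their median there was 0.35, and 0 were called in the other comparisons. The part of fibroblasts, tenocytes, macrophages and neutrophils in the collagen differences was not tested. None of the 9 tested fast and slow muscle markers was called in edgeR in any comparison, where 1 was lower at an unadjusted p under 0.05 in each comparison with *bves* KO-EX. In *bves* KO against WT, *bves* KO-EX against *bves* KO and *bves* KO-EX against WT, the log2 fold change was above 0 in 2, 0 and 1 of 5 fast markers. It was above 0 in 1, 0 and 0 of 4 slow markers. The medians were -0.17, -0.30 and -0.56 for the fast markers and -0.44, -0.22 and -0.71 for the slow markers.

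To set *loxl2a* against a fibrillar collagen chain gene at the RNA level, its CPM was divided by that of *col1a1a* within each library. The log2 ratio was -2.78, -2.84 and -2.24 in WT, -2.22, -1.89 and -2.60 in *bves* KO, and -3.65, -4.07 and -4.25 in *bves* KO-EX. The libraries of *bves* KO-EX were the 3 lowest, and WT and *bves* KO overlapped. From *bves* KO to *bves* KO-EX the mean log2 ratio fell by 1.75, a 3.37-fold lower ratio (two-sided exact permutation test, p = 0.1, which is the lowest value open to groups of 3). Against WT it fell by 1.37 (exact permutation test, p = 0.1), and between *bves* KO and WT it differed by 0.38 (exact permutation test, p = 0.2). With 3 libraries a group, none of these tests could reach 0.05. On the TPM scale, the 3 type I chain genes stood at 17.4 ± 4.86 times *loxl2a* in WT, 12.1 ± 3.24 times in *bves* KO and 37.9 ± 6.85 times in *bves* KO-EX (SD, n = 3). Replicate 2 of *bves* KO-EX, the library with *bves* in the *bves* KO range, had a ratio of 41.3, and replicates 1 and 3 had 30.04 and 42.5. Against all lysyl oxidases together, the fibrillar collagens stood at 2.47 to 5.50 TPM per TPM in WT, 3.92 to 5.33 in *bves* KO and 5.99 to 9.03 in *bves* KO-EX.

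**Figure D4:**
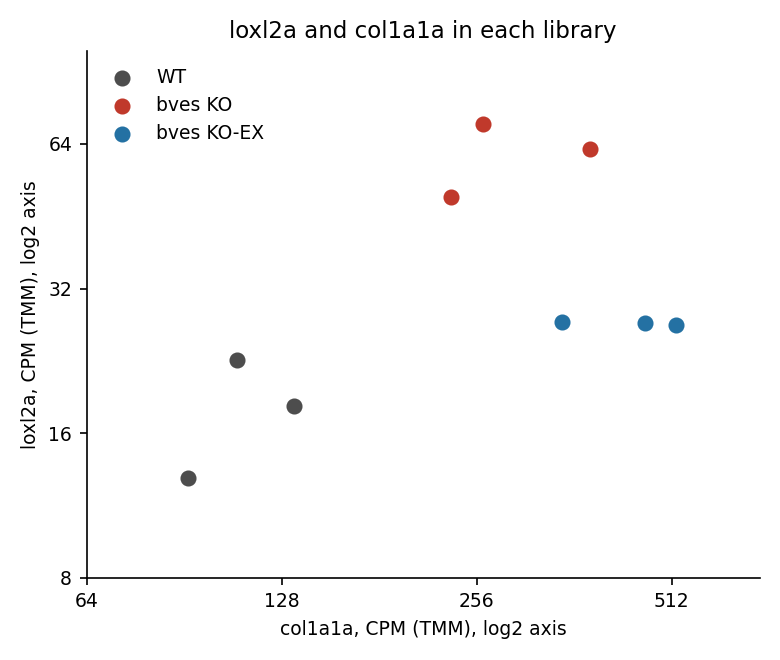
Level of *loxl2a* against that of *col1a1a* in each of the 9 libraries, in CPM after TMM scaling on log2 axes. Each point is 1 library. The *bves* KO-EX libraries are near 27 CPM of *loxl2a* at 347 to 521 CPM of *col1a1a*, below the *bves* KO libraries in *loxl2a* and within or above them in *col1a1a*.

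The enzymes and chaperones that act on collagen inside the cell were not called in any comparison. Of the 13 tested in edgeR, 2 were higher and 2 lower between *bves* KO and WT at an unadjusted p under 0.05. The numbers were 0 and 1 when *bves* KO-EX was compared with *bves* KO, and 1 and 0 when it was compared with WT, and DESeq2 called 0 in all 3. Over all genes, the shares higher and lower were 8.60% and 8.30%, 8.51% and 6.82%, and 12.5% and 12.6% in these comparisons. The Hsp47 gene *serpinh1b* was at 3.45, 9.87 and 6.43 CPM in WT, 5.26, 5.65 and 4.19 CPM in *bves* KO, and 3.22, 6.10 and 3.37 CPM in *bves* KO-EX, so the groups overlapped. The lysyl hydroxylase gene *plod2* was at 7.86, 7.83 and 7.85 CPM in WT, 14.7, 10.7 and 13.1 CPM in *bves* KO, and 6.67, 12.2 and 12.1 CPM in *bves* KO-EX, with a log2 fold change between *bves* KO and WT of 0.71 (edgeR adjusted p = 0.175, SE 0.242). The lysyl hydroxylase gene *plod3* was at 3.29 to 3.92 CPM in WT, 4.90 to 6.59 CPM in *bves* KO and 5.78 to 7.55 CPM in *bves* KO-EX, with a log2 fold change between *bves* KO-EX and WT of 0.88 (edgeR adjusted p = 0.0386), under the fold limit. The prolyl hydroxylase gene *p4ha2* was at 8.30 to 15.5 CPM in *bves* KO and 6.85 to 7.505 CPM in *bves* KO-EX, a difference of -0.64 on the log2 scale (edgeR adjusted p = 0.224). The prolyl 3-hydroxylase partner gene *crtap* was at 12.9 to 20.8 CPM in WT, 13.1 to 15.8 CPM in *bves* KO and 13.7 to 17.8 CPM in *bves* KO-EX. The 14 genes summed to 42.7 ± 7.94, 47.8 ± 5.90 and 44.2 ± 6.48 TPM in WT, *bves* KO and *bves* KO-EX (SD, n = 3). Type I chain TPM per TPM of these genes was 1.12 to 1.495 in WT, 2.74 to 3.72 in *bves* KO and 3.99 to 5.597 in *bves* KO-EX, with no overlap among the groups.

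None of the 9 tested matrix metalloproteinases was called by edgeR or DESeq2 in any comparison. At an unadjusted p under 0.05, edgeR had 1 higher between *bves* KO and WT, 0 in *bves* KO-EX against *bves* KO and 3 higher in *bves* KO-EX against WT, with 0 lower in each. The shares of all genes that were higher were 8.60%, 8.51% and 12.5%. The gelatinase gene *mmp2* was at 68.5, 79.5 and 80.2 CPM in WT, 122, 124 and 135 CPM in *bves* KO, and 134, 145 and 129 CPM in *bves* KO-EX. WT did not overlap with the other groups, and the log2 fold changes against WT were 0.74 in *bves* KO (edgeR adjusted p = 0.0901) and 0.84 in *bves* KO-EX (edgeR adjusted p = 0.0312), both under the fold limit. The membrane-anchored protease gene *mmp14a* was at 32.6 to 42.8 CPM in WT, 47.0 to 55.5 CPM in *bves* KO and 39.7 to 48.4 CPM in *bves* KO-EX. The inhibitor gene *timp2a* was at 59.8 to 66.8 CPM in WT, 72.8 to 79.5 CPM in *bves* KO and 71.3 to 76.7 CPM in *bves* KO-EX, with differences from WT of 0.27 and 0.26 on the log2 scale (edgeR adjusted p = 0.433 and 0.374). The ratio of *mmp2* to *timp2a* was 1.18 to 1.38 in WT, 1.61 to 1.91 in *bves* KO and 1.74 to 2.00 in *bves* KO-EX (TPM). The inhibitor gene *timp4.3* was at 23.2, 23.6 and 9.27 CPM in WT and 7.505, 9.99 and 6.47 CPM in *bves* KO-EX (log2 fold change -1.22, edgeR adjusted p = 0.0626). DESeq2 called *timp4.3* down and *timp2b* up in that comparison, and edgeR called 0 of the 3 tested inhibitors, with 1 higher and 1 lower at an unadjusted p under 0.05.

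Matricellular proteins bind collagen and cell receptors, and the fibronectin genes were grouped with them here. The periostin gene *postna* was at 11.99, 6.63 and 17.8 CPM in WT, 22.6, 31.5 and 30.1 CPM in *bves* KO, and 30.6, 37.6 and 38.8 CPM in *bves* KO-EX. WT was below both other groups. It rose between *bves* KO-EX and WT by 1.55 (edgeR adjusted p = 0.0216, SE 0.305, called in 7 of 9 fits with a library left out), and between *bves* KO and WT its log2 fold change was 1.20 (edgeR adjusted p = 0.0901). In the same comparison of *bves* KO-EX with WT, *postnb* rose by 1.16 (edgeR adjusted p = 0.0303, SE 0.257, 3 of 9 fits) and the fibronectin gene *fn1a* by 1.18 (edgeR adjusted p = 0.0291, SE 0.259, 5 of 9 fits). The *fn1a* libraries were at 11.7, 13.1 and 11.7 CPM in WT, 15.6, 27.7 and 24.2 CPM in *bves* KO, and 19.1, 32.9 and 30.8 CPM in *bves* KO-EX. The fibronectin paralog *fn1b* had 5.15 to 14.2 times the TPM of *fn1a* in each library, and its log2 fold change between *bves* KO-EX and WT was 0.28 (edgeR adjusted p = 0.499). For *sparc* the levels were 104, 143 and 133 CPM in WT, 204, 200.5 and 239 CPM in *bves* KO, and 269, 207 and 257 CPM in *bves* KO-EX, with a log2 fold change between *bves* KO-EX and WT of 0.95 (edgeR adjusted p = 0.0374), under the fold limit.

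The small leucine-rich proteoglycans, which coat collagen fibrils, held 0 calls by edgeR or DESeq2 among the 5 tested in the 3 comparisons. At an unadjusted p under 0.05, edgeR had 1 higher between *bves* KO and WT, 0 between *bves* KO-EX and *bves* KO, and 2 between *bves* KO-EX and WT, with 0 lower. The shares of all genes that were higher were 8.60%, 8.51% and 12.5%. The decorin gene *dcn* was at 58.4 to 81.9 CPM in WT, 84.5 to 103 CPM in *bves* KO and 78.5 to 143 CPM in *bves* KO-EX. The lumican gene *lum* was at 17.2 to 18.5 CPM, 16.4 to 23.0 CPM and 11.2 to 24.5 CPM in these groups, which overlapped.

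A different pattern was found in the hyaluronidase gene *hyal2a* (ENSDARG00000059931), whose mammalian counterpart cleaves the large matrix polysaccharide hyaluronan. It was at 11.3, 6.18 and 6.08 CPM in WT, 13.996, 17.4 and 17.5 CPM in *bves* KO, and 1.83, 2.16 and 2.45 CPM in the libraries labelled *bves* KO-EX. The 3 groups did not overlap, with *bves* KO highest and *bves* KO-EX lowest. It fell between *bves* KO-EX and *bves* KO by 2.92 on the log2 scale (edgeR adjusted p = 0.00226, SE 0.2805) and between *bves* KO-EX and WT by 1.87 (edgeR adjusted p = 0.00731, SE 0.276), both called in 9 of 9 fits with a library left out. Replicate 2 of *bves* KO-EX alone gave -2.93 and -1.88 (edgeR adjusted p = 0.0862 and 0.109). Between *bves* KO and WT the log2 fold change was 1.05 (edgeR adjusted p = 0.0828, SE 0.257), a difference that DESeq2 called. The paralog *hyal2b* was at 6.89 to 8.87 CPM in WT, 5.77 to 8.63 CPM in *bves* KO and 4.78 to 6.52 CPM in *bves* KO-EX and was not called. The hyaluronan synthase gene *has2* was at 6.23, 3.16 and 3.75 CPM in WT, 5.26, 3.52 and 3.87 CPM in *bves* KO, and 2.28, 1.97 and 2.83 CPM in *bves* KO-EX, with a log2 fold change between *bves* KO-EX and *bves* KO of -0.84 (edgeR adjusted p = 0.203). All 4 tested hyaluronan genes were lower in *bves* KO-EX than in *bves* KO, with a median of -0.78 and 1 called. Of all genes, 50.7% had a log2 fold change above 0 in that comparison and 0.748% were called down.

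Of the thrombospondin-1 genes, *thbs1b* was at 13.1, 5.12 and 18.9 CPM in WT, 36.3, 26.2 and 26.5 CPM in *bves* KO, and 13.3, 6.42 and 6.69 CPM in *bves* KO-EX. Thrombospondin-1 is known in mammals as an activator of latent TGF-beta. The *bves* KO libraries were the 3 highest, and WT and *bves* KO-EX overlapped. The log2 fold change between *bves* KO-EX and *bves* KO was -1.76 (edgeR adjusted p = 0.0862, SE 0.438), a difference called by DESeq2 and by edgeR on the 6 libraries compared. The paralog *thbs1a* was at 79.5, 58.2 and 72.3 CPM in WT, 75.7, 61.0 and 92.6 CPM in *bves* KO, and 46.8, 50.2 and 47.3 CPM in *bves* KO-EX. Its *bves* KO-EX libraries were the 3 lowest, with a log2 fold change of -0.67 against *bves* KO (edgeR adjusted p = 0.145, SE 0.2098).

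**Figure D5:**
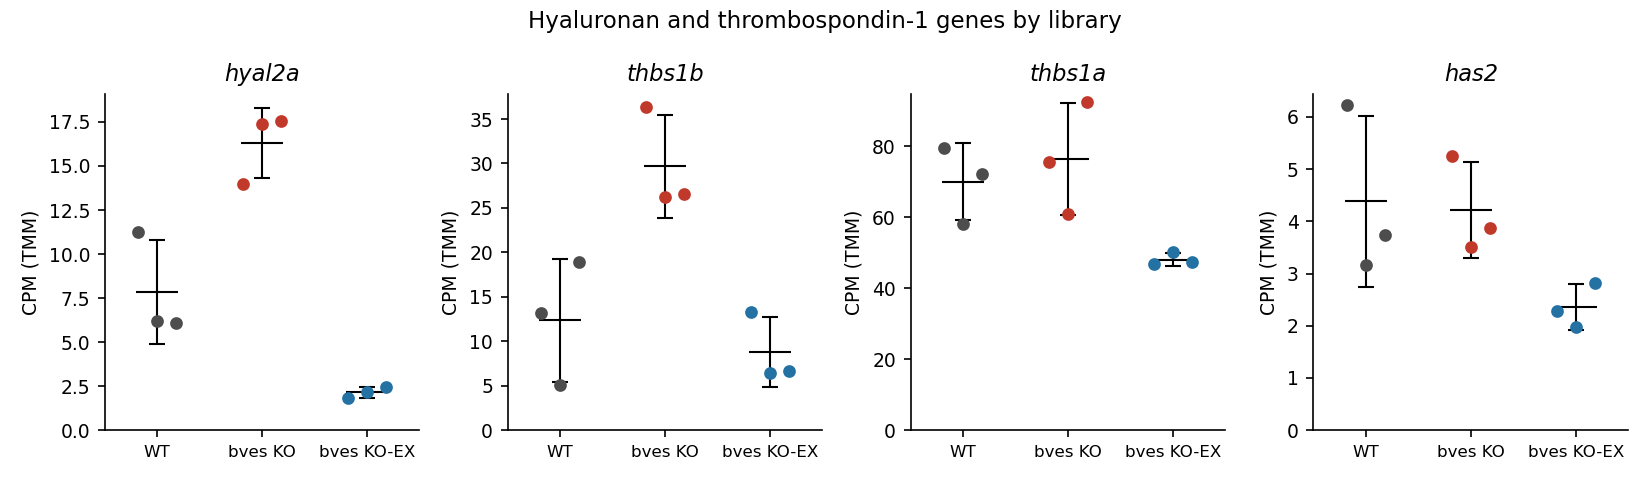
CPM after TMM scaling of *hyal2a*, *thbs1b*, *thbs1a* and *has2* in each library. Points are libraries, and bars are the mean and SD of 3. In *hyal2a*, *thbs1a* and *has2* the *bves* KO-EX libraries lie below all others, and in *thbs1b* they lie below *bves* KO and among WT.

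Genes of neighbouring pathways that are not members were counted from 6 lists. Of all tested genes, edgeR called 0.714% up and 0.343% down between *bves* KO and WT. The shares were 0.653% and 0.748% between *bves* KO-EX and *bves* KO, and 2.46% and 1.66% between *bves* KO-EX and WT. At an unadjusted p under 0.05 in edgeR, 8.60% of all genes were higher and 8.30% lower between *bves* KO and WT. In the list of TGF-beta signalling, a pathway known in mammals to drive collagen genes, *ccn2a*, a target gene of the pathway, was called up between *bves* KO and WT (log2 fold change 1.15, edgeR adjusted p = 0.0406) out of 21 tested, with 0 called down, 6 higher and 0 lower at an unadjusted p under 0.05. In *bves* KO-EX compared with *bves* KO, *ccn2a* was among the genes of this list that fell (-1.23, edgeR adjusted p = 0.0259), and 0 rose. Of 8 tested aggrecanases and other ADAMTS proteases, *adamts1* (-2.53, edgeR adjusted p = 0.00955), *adamts8a* (-1.57, edgeR adjusted p = 0.0368) and *adamts9* (-2.70, edgeR adjusted p = 0.00959) fell between *bves* KO-EX and *bves* KO. The genes *adamts1* and *adamts9* also fell against WT, where 3 of the 8 were higher and 2 lower at an unadjusted p under 0.05. Over all genes these shares were 12.5% and 12.6%. Between *bves* KO and WT 0 of the 8 were called, and 7 had a log2 fold change above 0 (median 0.98). At an unadjusted p under 0.05, 4 of them were higher and 0 lower in that comparison. Of 14 basement membrane genes, the nidogen gene *nid2a* rose between *bves* KO and WT (1.15, edgeR adjusted p = 0.0265), and *nid2a* (1.27, edgeR adjusted p = 0.00937) and the laminin gene *lamc3* (1.38, edgeR adjusted p = 0.0396) rose between *bves* KO-EX and WT. All 14 had a log2 fold change above 0 in both of these comparisons, against 47.7% and 50.4% of all genes.

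Of 17 integrin genes tested, *itga5*, a chain of the fibronectin receptor, rose between *bves* KO and WT (1.61, edgeR adjusted p = 0.0149) and 0 were called in the other comparisons. Of 19 partners of collagen processing and export, *adamts2*, the procollagen N-proteinase, rose between *bves* KO-EX and WT (1.104, edgeR adjusted p = 0.0244), and 0 were called between *bves* KO and WT, where 4 were higher and 0 lower at an unadjusted p under 0.05. Of 13 elastic fibre genes, the fibulin gene *fbln2* rose between *bves* KO-EX and WT (1.32, edgeR adjusted p = 0.00548). With replicate 2 as the only library of *bves* KO-EX, 0 genes of the 6 lists were called in a comparison with that label. The folds of the listed genes named for those comparisons kept their direction, at -1.02 for *ccn2a*, -2.09 for *adamts1*, -1.94 for *adamts8a* and -2.68 for *adamts9* against *bves* KO. Against WT they were -1.05 for *adamts1*, -1.76 for *adamts9*, 0.88 for *nid2a*, 1.17 for *lamc3*, 1.40 for *adamts2* and 1.43 for *fbln2*.

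Some members were high in single libraries, beside which markers of other tissues are given. The chain *col10a1b* was at 57.4 CPM in replicate 3 of *bves* KO-EX and at 0.101 to 1.89 CPM in the other 8 libraries, so its log2 fold changes of 5.19 and 5.37 in that group rest on 1 library (edgeR adjusted p = 0.206 and 0.119). The 7 osteoblast and scale markers summed to 25.1 TPM in that library, within the range of 18.8 to 90.9 TPM over all 9. Of that sum 16.25 TPM came from *sp7* on 13 counts, and *sp7* had at most 18 counts in any library. A sum that rests on so few reads cannot show whether bone or scale tissue was present. The prolyl 3-hydroxylase family gene *p3h4* was at 26.7 CPM in replicate 2 of WT and at 1.31 to 6.11 CPM elsewhere. The osteocalcin gene *bglap* was at 82.6 TPM in the same library and at 2.37 to 19.4 TPM elsewhere. It made up most of the osteoblast and scale sum there, which was 90.9 TPM and at most 44.6 TPM elsewhere. The other markers of that list were at 4.24 TPM (*sp7*), 2.45 TPM (*phex*), 1.45 TPM (*spp1*), 0.19 TPM (*entpd5a*) and 0 TPM (*runx2a* and *runx2b*) in that library. In TPM, which lacks the TMM scaling, the values of *sp7* and *phex* were their lowest of the 9 libraries. That of *sp7* rested on 5 counts, the same number as in replicate 3 of WT, where it was listed at 14.3 TPM. Replicate 2 of WT had the lowest TMM factor, 0.763, so these values do not show that the markers were low there. The epidermal adhesion chain *col17a1b* was at 3.50 CPM in replicate 1 of WT, 4.95 CPM in replicate 1 of *bves* KO-EX and at most 1.03 CPM elsewhere. The epidermal keratin gene *krt5* was highest in those same libraries, at 37.4 and 96.2 TPM, and at 0.38 to 36.6 TPM elsewhere, while the 7 epidermal markers summed to 49.2 to 149 TPM in WT, 59.9 to 89.5 TPM in *bves* KO and 80.3 to 251 TPM in *bves* KO-EX. At an unadjusted p under 0.05 in edgeR, 4, 2 and 2 of the 6 were higher and 0, 0 and 1 lower in these comparisons. Over all genes, the shares higher were 8.51%, 12.5% and 8.60%, and those lower 6.82%, 12.6% and 8.30%. The part of skin or scale tissue in these values and in the collagen differences was not tested. The chain *col28a1b* was counted with *col17a1b* among the transmembrane, anchoring and other collagens. It was at 15.9 to 46.8 CPM over the 9 libraries and was not called.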

How the data were processed

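Estimated counts (expected counts of reads per Ensembl gene) and TPM values for each library were deposited by the authors in a pair of tables. The labels' processing notes name fastp, HISAT2, StringTie and RSEM, without versions or roles, and the genome build is not given in the sources used here, so no coordinates or sequences are printed. Separate columns hold the authors' own fold changes and p-values, which were not used. The *bves* KO libraries stand in both tables, and 0 values in the 6 shared columns differed.

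Expected counts were rounded and tested with edgeR 4.0.16 in R 4.3.3 (filterByExpr by group, TMM factors of 0.763 to 1.17, robust glmQLFit, then glmQLFTest as a two-sided test over the 9 libraries, Benjamini-Hochberg adjustment over 14849 genes, biological coefficient of variation 0.295). The SE came from the log2 fold change and the F statistic. Ratios used CPM with a pseudocount of 0.5 and exact permutation tests (SciPy 1.17.1). The test was checked on simulated counts. The alternatives were other filters, scalings, DESeq2 1.42.0, the 6 libraries compared, the replicate number as a block, no fold limit, and libraries left out. No batch is given in the labels.

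The members and lists were chosen with earlier results of these data known. Named members were *loxl2a*, all called members, the 5 with the smallest adjusted p in each comparison, the 2 with the highest TPM in each role, and *col1a1a*, *col1a1b*, *col1a2*, *col5a1*, *sparc*, *serpinh1b* and *plod2*. The members *loxl2b*, *loxl3a*, *loxl3b*, *loxl4*, *LOXL4*, *loxl5b*, *fn1b*, *timp2b*, *has2*, *col10a1b*, *p3h4*, *col4a4*, *plod3*, *serpinh1a* and *col6a4a* fall outside this rule and were named after their values were seen. So were *tnmd*, *krt5*, *bglap* and the other osteoblast and scale markers where not called. A planned correlation of *loxl2a* with other genes across libraries is not given, because the 3 groups form separate clusters of *loxl2a* with 3 libraries each. The result of a further gene in the lists of neighbouring pathways is not reported here.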

Additional observations from a re-analysis of the deposited data

How the results depend on the processing

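Under the alternatives, 0 of the named members with a call reversed. Of the 5 members called between *bves* KO and WT, total-count scaling and a fit of the 6 libraries compared each left 3, DESeq2 called 9, and the fit without replicates 1 and 3 of *bves* KO-EX left 2. With 1 library left out in turn there were 1 to 6. Without replicate 2 of WT, or without replicate 3 of *bves* KO, only *loxl2a* was called. Of the 2 called between *bves* KO-EX and *bves* KO, total-count scaling left 1 and the fit without replicates 1 and 3 of *bves* KO-EX left 0, and there were 1 to 3 calls with 1 library left out. For *bves* KO-EX against WT, where 13 were called, there were 20 with no fold limit, 0 without replicates 1 and 3 of *bves* KO-EX, and 6 to 15 with 1 library left out. Under total-count scaling the median over all genes lay at 0.11 for *bves* KO-EX against either other group. The causes of these changes were not tested.

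No pairing by replicate number was seen. The correlation of deviations lay between -0.281 and 0.156 for same-numbered libraries and between -0.204 and 0.254 for libraries of different number. With 3 libraries a group, these values cannot show that pairing is absent. With the replicate block there were 4 members called between *bves* KO and WT, 2 between *bves* KO-EX and *bves* KO, and 14 between *bves* KO-EX and WT. The log2 ratio of *loxl2a* to *col1a1a* kept its direction in all 3 comparisons under other pseudocounts, TPM and each library left out. Total-count scaling cancels in this ratio apart from the pseudocount. At this depth, a member at the floor of 3 counts a library gives no fold, and 3 libraries a group cannot take an exact permutation p below 0.1.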
